A study of Mus musculus with 8 samples.

Results

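Distal accessible regions, the openings in chromatin that lie away from the starts of genes, were unevenly spread over the mouse genome in PyMT-derived mammary tumor cells, and the 300 densest stretches of 100 kb are described here. The peaks of all 8 ATAC-seq libraries were merged where they shared at least 1 bp, which gave 183194 regions. Regions within 1 kb of an annotated transcription start site (TSS) were dropped, and the remaining 144002 regions of the 19 autosomes were counted in 24639 fixed bins of 100 kb. The 300 bins with the most regions, called member bins below, held 7101 regions, or 4.93% of the distal regions in 1.22% of the autosomal bases. ATAC-seq uses the Tn5 transposase to cut and tag DNA that is not wrapped tightly in nucleosomes, so that a peak marks accessible chromatin. The cells were cell lines derived from mammary tumors driven by the polyomavirus middle T oncogene (PyMT), of the strain labelled FBV/N, and were either wild type (WT) or Lats1-CKO, which lacks Lats1, a kinase of the Hippo pathway. They were sorted by surface staining into luminal cells (high EpCAM and high CD49f) and basal-like cells (low EpCAM and high CD49f) and briefly expanded in culture, and each of the 4 groups gave 2 libraries. The WT luminal libraries were BM1 and BM5, and the WT basal-like ones were BM2 and BM6. For Lats1-CKO, luminal cells gave BM3 and BM7, while basal-like cells gave BM4 and BM8. All 4 groups carry the PyMT oncogene and had passed through culture, and the labels do not say which libraries came from the same line or tumor, so p-values measure only the spread between these libraries.

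Enhancers are distal elements at which transcription factors bind and from which they raise transcription of genes that may lie far away along the chromosome. Genes that are strongly expressed or that define a cell type often have many enhancers close together, and such clusters have been called super-enhancers or stretch enhancers. In epithelial and cancer cells, AP-1 factors (Fos and Jun proteins) and TEAD factors, which carry the Hippo effectors YAP and TAZ to DNA, are known to occupy many enhancers. Peak density alone does not show that a bin is an enhancer cluster, and no histone mark or expression value was used here.

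To show what the most recurrent and highest-scoring openings in the densest bins look like, the central bases, at most 300, of the highest-scoring region are printed for 6 of the 20 densest bins. They were chosen to show printed stretches with and without matches to the AP-1 letters TGANTCA and the TEAD letters GGAATG. The letters were searched on both strands, and matches are in capitals. Sequences are the plus strand of the reference strain (GRCm38, RefSeq), which is not the strain of the cells.
Socs3 bin, chr11:117958142-117958441: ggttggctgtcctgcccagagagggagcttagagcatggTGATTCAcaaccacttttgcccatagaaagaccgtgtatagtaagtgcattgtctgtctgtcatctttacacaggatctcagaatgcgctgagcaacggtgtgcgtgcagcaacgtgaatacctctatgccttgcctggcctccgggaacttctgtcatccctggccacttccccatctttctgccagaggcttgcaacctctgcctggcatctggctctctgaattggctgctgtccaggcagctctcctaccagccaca
Sept9 bin, chr11:117205518-117205785: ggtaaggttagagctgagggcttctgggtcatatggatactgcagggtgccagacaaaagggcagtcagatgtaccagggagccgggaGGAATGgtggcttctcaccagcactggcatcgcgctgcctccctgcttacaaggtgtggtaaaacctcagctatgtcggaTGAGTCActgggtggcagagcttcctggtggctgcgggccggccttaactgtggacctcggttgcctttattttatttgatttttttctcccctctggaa
Irf2bpl bin, chr12:86833661-86833960: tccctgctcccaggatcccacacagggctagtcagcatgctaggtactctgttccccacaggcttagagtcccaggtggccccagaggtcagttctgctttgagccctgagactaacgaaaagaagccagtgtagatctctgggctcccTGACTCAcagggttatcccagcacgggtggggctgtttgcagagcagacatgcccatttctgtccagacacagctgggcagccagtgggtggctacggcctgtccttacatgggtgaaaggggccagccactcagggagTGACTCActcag
Iqsec1 bin, chr6:90767971-90768133: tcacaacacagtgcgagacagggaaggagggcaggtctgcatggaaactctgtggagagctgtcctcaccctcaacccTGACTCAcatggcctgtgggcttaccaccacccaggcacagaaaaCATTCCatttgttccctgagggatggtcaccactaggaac
bin near Wnt7b, chr15:85634471-85634770: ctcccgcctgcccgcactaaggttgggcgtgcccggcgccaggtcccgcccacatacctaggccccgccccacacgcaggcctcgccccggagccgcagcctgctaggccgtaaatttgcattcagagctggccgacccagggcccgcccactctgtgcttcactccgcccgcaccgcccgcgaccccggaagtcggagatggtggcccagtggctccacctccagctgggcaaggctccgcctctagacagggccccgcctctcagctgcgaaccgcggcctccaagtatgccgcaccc
Pmepa1 bin, chr2:173281250-173281549: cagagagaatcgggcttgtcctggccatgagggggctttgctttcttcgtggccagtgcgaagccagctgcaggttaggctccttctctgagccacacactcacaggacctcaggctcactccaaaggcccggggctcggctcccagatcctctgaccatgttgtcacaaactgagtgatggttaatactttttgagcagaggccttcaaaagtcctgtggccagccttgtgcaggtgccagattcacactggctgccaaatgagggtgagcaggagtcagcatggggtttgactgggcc

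The region in the Socs3 bin was a peak in 8 libraries and lay outside protein-coding genes, and its printed bases held 1 AP-1 match. The region in the Irf2bpl bin, also a peak in 8 libraries, had the highest mean score percentile of the 20 (96.9, the average over libraries of the percentage of that library's peaks with a lower score). Its printed bases held 2 AP-1 matches. Intronic regions of Sept9 and Iqsec1 were peaks in the 7 libraries other than BM3, and each held 1 AP-1 and 1 TEAD match, the TEAD match of Iqsec1 being on the minus strand (CATTCC). The printed bases of the regions near Wnt7b and at Pmepa1 held neither, although these regions were peaks in 8 libraries. The regions are 475 and 914 bp wide, and the bases not printed were not searched. The printed bases near Wnt7b were 71.3% G and C, against 56.7% in those of Pmepa1. Over the central 200 bp of the distal regions of all autosomes, 29.1% held the AP-1 letters and 16.9% the TEAD letters, so that a match is common and does not show that a factor was bound.

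The number of regions per bin declined without a gap across the limit. The median autosomal bin held 5 distal regions and 3145 bins held none, whereas member bins held 21 to 34, with a median of 23. Since 77 bins held 21 regions, the limit of 300 fell within a tie: 75 of them were members and 2 were left out by their place on chromosome 19, those of Lrp5, a Wnt coreceptor (chr19:3600001-3700000), and Tcf7l2, a transcription factor of the Wnt pathway (chr19:55700001-55800000). The last members in order, with 21 regions each, lay on chromosome 18 at Arhgap26, Ccdc192 and Zbtb7c. A further 122 bins held 20 regions, the first of them at Hs6st1 and Sh3bp4. These counts are what chose the members and are given as a description.

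**Figure D1:**
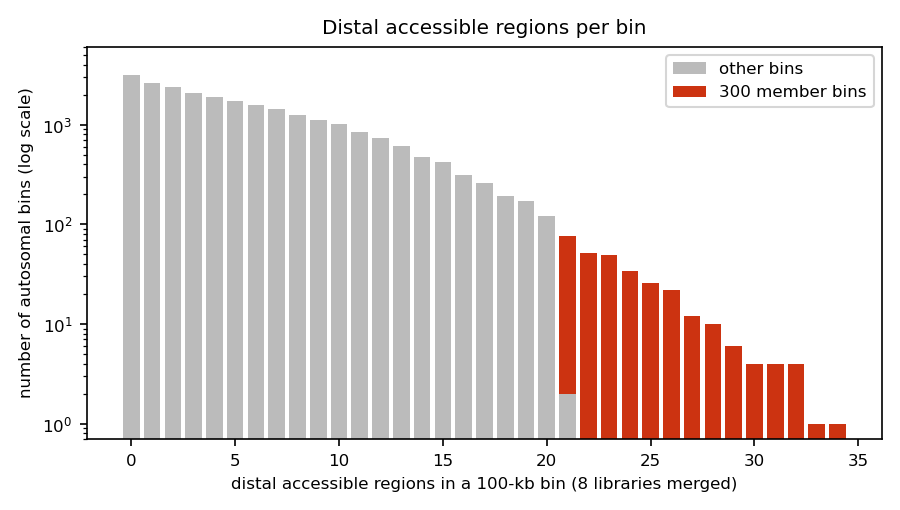
Number of autosomal 100-kb bins (y axis, log scale) against the number of distal regions in a bin (x axis), with the 300 member bins in red. The counts decline without a gap, and the tie at 21 regions holds 2 bins that are not members.

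Libraries differed widely in their number of peaks, and with them in what they added to the members. Distal autosomal peaks numbered from 6269 in BM3 to 73069 in BM8, and the lists carry no read counts, so sequencing depth is unknown. BM3 (Lats1-CKO luminal) stood apart, with a mean of 1.63 peaks per member bin and no peak at all in 86 members. The other 7 libraries had means of 6.84 (BM5) to 14.1 (BM8), and each lacked a peak in at most 2 members. According to the study's methods, quality control removed a replicate of this group before its merged tracks were made, and which one is not named. As a check of the sorted cells, the promoters of Itga6 (which encodes CD49f), Krt8 and Krt14 had a peak in 8 of 8 libraries. That of Epcam had one in all but BM4 and BM8, so both WT basal-like libraries, sorted for low EpCAM, had it. The promoter of Krt18, a luminal keratin like Krt8, had a peak in all but BM3, BM4 and BM8. That of Krt5, a basal keratin, had one in BM7 only. Of 24 luminal genes, 11 (BM4) to 23 (BM1) had a promoter peak, and of 20 basal-like genes 10 (BM3) to 16 (BM7). The Lats1 promoter had a peak in 7 of 8 libraries, BM3 lacking it, and it does not report on the deletion.

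Member bins held a similar share of the distal peaks of every library, whether or not that library took part in choosing them. The share was 5.70% in BM1, 6.01% in BM2, 7.80% in BM3, 5.39% in BM4, 4.97% in BM5, 6.37% in BM6, 5.87% in BM7 and 5.80% in BM8. With the 300 bins chosen each time from the other 7 libraries, it ran from 4.88% (BM5) to 7.78% (BM3). The highest value in both cases was that of the library with the fewest peaks. Among the 5000 highest-scoring distal peaks of each library, the share was between 6.50% (BM2) and 8.86% (BM8), above that of all peaks in 8 of 8 libraries. For BM3, with 6269 distal peaks, the 5000 are most of its peaks, and the shares were nearly equal (7.90% and 7.80%). The mean share of the Lats1-CKO libraries minus that of the WT libraries was 0.454 percentage points, and without BM3 it was -0.0735 points, so the direction rested on BM3. Likewise, the difference of basal-like from luminal cells was -0.187 points with BM3 and 0.385 points without it.

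**Figure D2:**
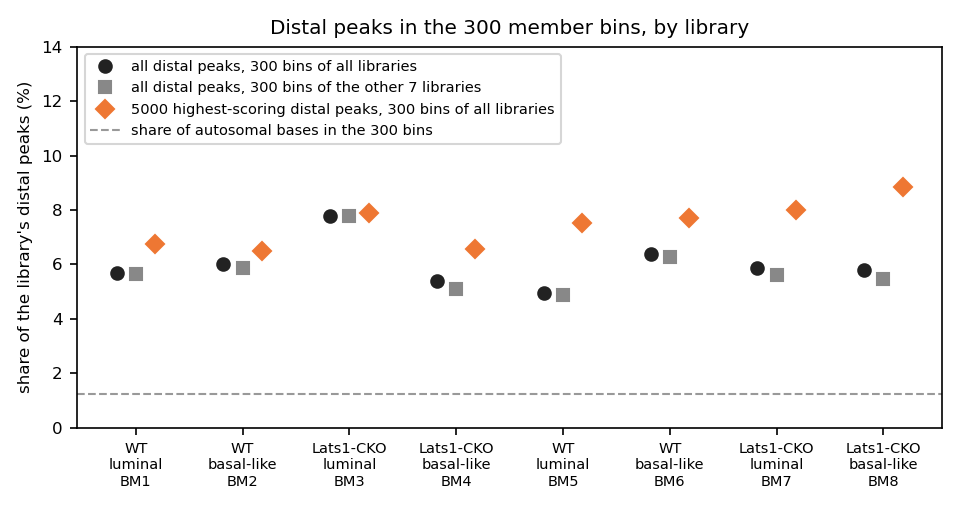
Share of each library's distal autosomal peaks that lay in the 300 member bins (y axis, percent), for all peaks, for bins chosen without the library and for the 5000 highest-scoring peaks; the dashed line is the share of autosomal bases, 1.22%. Every point lies between 4.88% and 8.86%, with BM3 highest among all peaks.

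Each library's own ranking picked partly other bins. Of the 300 bins with the most peaks in that library alone, 172 were members for BM7 and 170 for BM8, against 119 to 136 for BM1, BM2, BM4, BM5 and BM6 and 67 for BM3. The Socs3 bin was the densest of all in BM1, BM2 and BM5, with 20, 19 and 18 peaks. The densest was the bin near Tomm20 in BM4 (21 peaks) and that of Sept9 in BM8 (26). Choosing the bins from the 4 WT libraries alone kept 168 of the 300, and from the 4 Lats1-CKO libraries alone 248.

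The densest bin (chr11:117900001-118000000) had 34 regions and holds the start sites of Socs3, an inhibitor of JAK-STAT signalling, and Pgs1, an enzyme of mitochondrial phospholipid synthesis. It held 20, 19, 4, 21, 18, 14, 24 and 25 peaks in BM1 to BM8, and 10 of its regions were shared by all 7 libraries other than BM3, as many as in any member. Scaled to 10000 distal peaks of the library, it held 4.01 and 4.36 in the WT luminal libraries, 3.34 to 4.20 in the others, and 6.38 in BM3. Transcription regulators among the densest bins were Nfix with Lyl1 (chr8:84700001-84800000, 32 regions), Irf2bpl (chr12:86800001-86900000, 32), Cebpb (chr2:167600001-167700000, 30) and Zfhx3 (chr8:108700001-108800000, 29). The Nfix bin had no peak in BM3 and 5 to 17 in the others, whereas the Irf2bpl bin had 5 in BM3 and 13 to 25 in the others. Pmepa1, a feedback inhibitor of TGF-beta signalling, shares its bin (chr2:173200001-173300000, 29) with Zbp1, a sensor of nucleic acids.

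Among the rest of the 20 densest bins, that of Sept9, a filament-forming GTPase, had 32 regions (chr11:117200001-117300000), with 16, 13, 1, 11, 14, 8, 21 and 26 peaks in BM1 to BM8. Myo1e, a membrane-binding myosin, had 31 (chr9:70200001-70300000), and Iqsec1, an exchange factor for Arf GTPases, 31 (chr6:90700001-90800000). Bcar1, a scaffold of focal adhesions (chr8:111700001-111800000), and Actn1, an actin crosslinker (chr12:80200001-80300000), had 30 each. The Actn1 bin held 14, 15, 1, 14, 10, 8, 17 and 16 peaks and differed little between libraries once scaled, from 2.19 (BM8) to 3.09 (BM2) per 10000 outside BM3. A bin with 29 regions (chr1:135800001-135900000) holds Pkp1, a desmosomal protein, and Lad1, a basement membrane protein, beside the troponin genes Tnni1 and Tnnt2. Dnase1l3, a secreted DNase, had 31 regions (chr14:7900001-8000000). Nmur1, a neuropeptide receptor, and Tex44 share the remaining bin with a start site (chr1:86400001-86500000, 29).

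**Figure D3:**
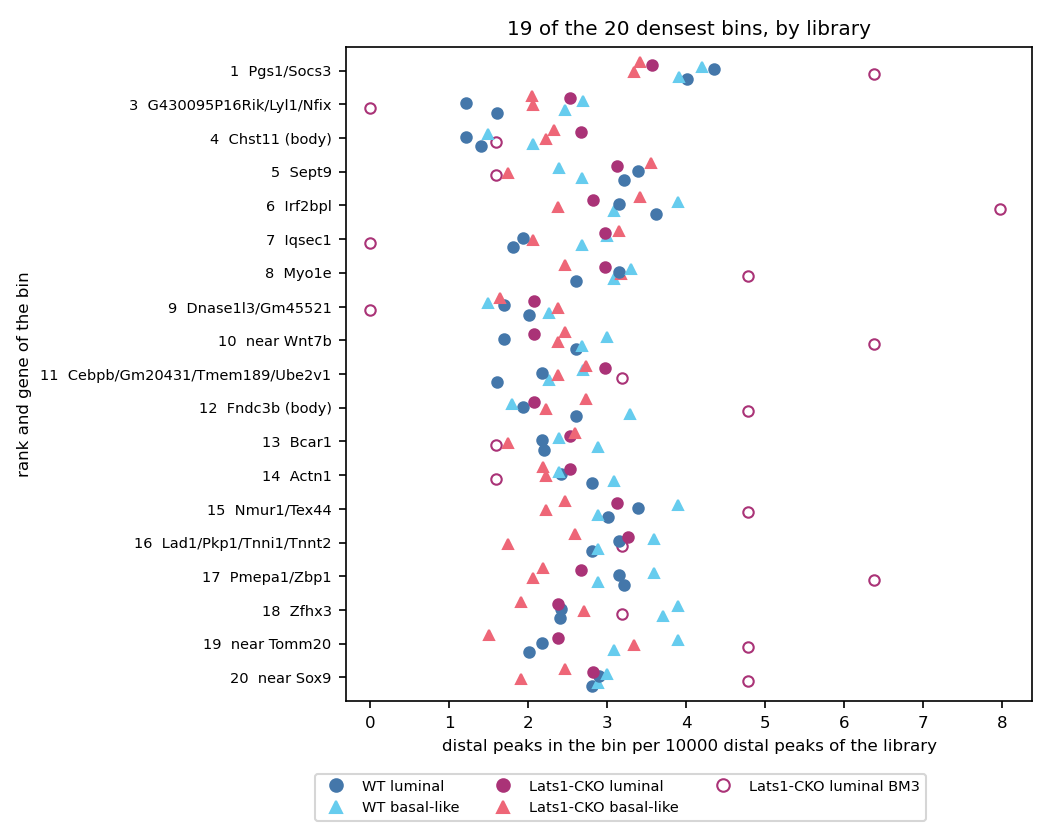
Distal peaks per 10000 distal peaks of the library (x axis) in 19 of the 20 densest bins (y axis, rank and gene), with WT libraries in blue, Lats1-CKO libraries in red and purple, and BM3 as open circles. Outside BM3 the values lie between 1.21 and 4.36, and BM3 reaches 7.98 at Irf2bpl.

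Members clustered along some chromosomes. Of the bins of chromosome 11, 3.11% were members (38 of 1221), the highest share of the autosomes, and of those of chromosome 16, 0.509% (5 of 983), the lowest. In all, 249 members had no adjoining member, and the other 51 formed 19 pairs, 3 runs of 3 and 1 run of 4. The run of 4 bins (chr11:117000001-117400000) had 102 regions over Sept9 and Sec14l1. The 3 runs of 3 bins lay at Cebpb with its neighbours (chr2:167600001-167900000, 79 regions), in Nav2, a regulator of neurite outgrowth (chr7:49200001-49500000, 75), and at Zmiz1, a transcriptional coregulator (chr14:25300001-25600000, 72). Counted by whole megabases, the stretch chr11:117000001-118000000, which holds both Sept9 and Socs3, had 7 members among its 10 bins and 181 regions, more than any other megabase.

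Members without a gene start included 5 of the 20 densest. Of the 300, 71 (23.7%) held no start site of a protein-coding gene, against 49.6% of the other bins, and 31 touched no protein-coding gene at all. The 5 densest of the 71 included a bin overlapping Chst11, a chondroitin sulfotransferase (chr10:83100001-83200000, 32 regions), and a bin within Fndc3b, a transmembrane protein (chr3:27600001-27700000, 30). The others lay 17528 bp from Wnt7b, a Wnt ligand (chr15:85600001-85700000, 31), 45844 bp from Tomm20, a mitochondrial import receptor (chr8:126800001-126900000, 29), and 317777 bp from Sox9 (chr11:113100001-113200000, 29). The bin overlapping Chst11 held 7, 10, 1, 14, 5, 5, 18 and 17 peaks in BM1 to BM8. There the 3 Lats1-CKO libraries other than BM3 lay above the WT libraries once scaled (2.23 to 2.68 against 1.21 to 2.06 per 10000). The bin near Wnt7b held 13, 13, 4, 15, 7, 10, 14 and 18 peaks, and scaled values of the genotypes overlapped.

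Around Sox9, a transcription factor of progenitor cells in many epithelia, members lay on both sides of the gene, 4 of them without a start site of any protein-coding gene. This locus was singled out after its values were seen. The bin of Sox9 itself (chr11:112700001-112800000, 23 regions) held 12, 15, 4, 8, 9, 8, 14 and 15 peaks in BM1 to BM8. The adjoining bin upstream (chr11:112600001-112700000, 28 regions) held 9, 8, 2, 9, 2, 6, 20 and 18. Scaled to 10000 distal peaks, these were 0.484 to 1.81 in WT, 1.43 in BM4, 2.97 in BM7 and 2.46 in BM8. BM3 had 3.19, from 2 peaks. A further member 482224 bp from Sox9 (chr11:112200001-112300000, 22 regions) held 3, 3, 0, 4, 2, 1, 11 and 10 peaks, again most in BM7 and BM8. In the bin 317777 bp away on the other side, by contrast, the counts were 14, 14, 3, 12, 12, 10, 19 and 18, which scaled to 2.81, 2.88 and 2.90 per 10000 in BM1, BM2 and BM5 and to 1.91, 2.82 and 2.46 in BM4, BM7 and BM8.

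Genes with a start site in a member were long. Their median length was 40.9 kb, against 17.6 kb for all protein-coding genes of the autosomes, and 29.1% of them were over 100 kb, against 11.4%. Nav2 and Sept9 had start sites in 3 members each, and Cmip, Col4a2, Ptpn14, Tnni1, Tns3, Vgll4 and Zmiz1 in 2. In all, 346 of the 20780 protein-coding genes of the autosomes had a start site in a member, which is 1.67%, and 433 (2.08%) had a body that overlapped one. Longer genes reach into more bins, so the median length of each list is given with its count.

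Against that background, genes of the actin cytoskeleton and focal adhesions stood in members most often among the 14 lists examined. Of 18 such genes, 6 had a start site in a member: Actb, Actn1, Bcar1, Myh9, Tpm1 and Tns3, and the median length of the list was 42.3 kb. Myh9, the heavy chain of nonmuscle myosin (chr15:77800001-77900000), had 26 regions with 10, 13, 5, 21, 9, 10, 12 and 15 peaks in BM1 to BM8, and 4 of its regions were peaks in all libraries. Tns3, which encodes a tensin that links integrins to actin, had start sites in 2 members with 25 and 21 regions. Of 22 YAP and TAZ targets (median length 24.4 kb), 4 were in members. Ccn1, a secreted matricellular protein (chr3:145600001-145700000, 23 regions), held 12, 15, 5, 12, 12, 9, 17 and 18 peaks, and its scaled values in the genotypes overlapped. Crim1, a transmembrane regulator of growth factors (chr17:78200001-78300000, 25 regions), held 6, 6, 0, 10, 6, 5, 12 and 15. The others were Ptpn14, a phosphatase that restrains YAP, with 25 regions in each of 2 members, and Nuak2, a kinase, with 25. Of 19 genes of the Hippo pathway and TEAD partners (median 76.5 kb), 3 were in members: Wwc1, an upstream activator, with 26 regions, Frmd6, a FERM-domain regulator, with 21, and Vgll4, a TEAD cofactor, with 25 and 21.

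The other lists had smaller shares than those above, at most 12.5%, against 1.67% of all protein-coding genes. Corepressors had 1 of 12 (Hdac7, 8.33%, median length 54.1 kb) and endothelial genes 1 of 8 (Egfl7, 12.5%, 68.4 kb). Basal-like and myoepithelial genes had 2 of 20 (Itgb4 and Egfr, 10%, 22.5 kb). Receptor tyrosine kinases and their ligands had 2 of 20 (Egfr and Vegfa, 10%, 71.3 kb). Mesenchymal and fibroblast genes had 2 of 20 (Col5a1 and Pdgfrb, 10%, 39.2 kb). AP-1 factors had 1 of 11 (Atf3, 9.09%, 8.4 kb) and the TGF-beta pathway 1 of 18 (Smad7, 5.56%, 63.2 kb). No gene had a start site in a member among 24 luminal genes, 14 of the cell cycle and Myc, 13 immune genes and 16 genes of tissues absent from these cultures. The luminal list includes Krt8, Krt18, Epcam and Elf5, whose start sites lay outside the members, and its median length was 13.3 kb. Atf3, a stress-induced AP-1 factor (chr1:191200001-191300000, 23 regions), held 13, 10, 7, 13, 11, 12, 14 and 15 peaks in BM1 to BM8, the 7 in BM3 standing against its mean of 1.63 per member bin, and 4 of its regions were peaks in all 8. Itgb4, the partner of CD49f in hemidesmosomes (chr11:115900001-116000000, 22 regions), held 11, 11, 3, 12, 11, 10, 17 and 17.

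Beyond their number, the regions in members differed from those elsewhere in several features the selection had not used directly. They lay more often in introns (60.5% against 44.8%), and their median width was 175 bp against 143 bp. Fewer were peaks in a single library (39.8% against 48.7%) and more were peaks in all 8 (4.83% against 2.70%). Member bins had a median GC content of 47.6% against 41.4%, held more regions near start sites (a mean of 2.93 against 1.35) and slightly more protein-coding start sites (1.19 against 1.02). Within members, neighbouring regions were a median of 2717 bp apart, and distal regions covered a median of 4.87% of the bin. Distal peaks in members also ranked higher in score in 8 of 8 libraries, with the widest gap in BM5 (median percentile 56.8 against 43.5) and the narrowest in BM2 (48.3 against 46.7). They were wider in 8 of 8 libraries too. GC content, width, score and recurrence were not separated from each other, and since all regions come from the same libraries no test was made.

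AP-1 letters were more frequent in regions shared by more libraries. In members, the letters TGANTCA stood in 20.4% of the regions found in 1 library, 27.9% of those found in 4 and 44.9% of those found in all 8. The same rise was present in the other bins, from 23.4% to 46.8%. TEAD letters (GGAATG) changed little with the number of libraries, between 15.6% and 19.5% in members. Over all regions, members held AP-1 letters slightly less often than the other bins (26.7% against 29.3%), TEAD letters about as often (17.1% against 16.9%) and the GC-rich letters GGGCGG, read by SP and KLF factors, more often (6.91% against 4.53%). The median width of the regions rose with the number of libraries as well, from 107 to 403 bp in members, while the window searched was 200 bp for every region.

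**Figure D4:**
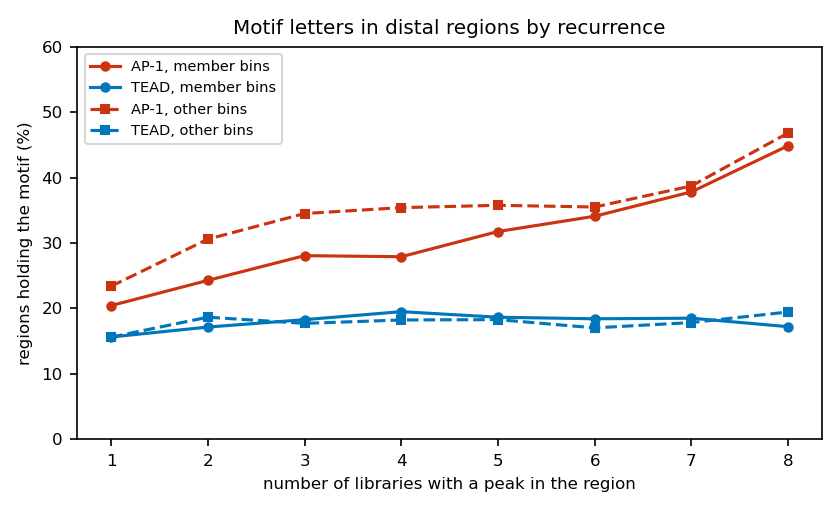
Share of distal regions whose central 200 bp held the AP-1 (red) or TEAD (blue) letters (y axis, percent) by the number of libraries with a peak in the region (x axis), in members (solid lines) and other bins (dashed). AP-1 rises from 20.4% to 44.9% in members, and TEAD stays between 15.6% and 19.5%.

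Regions that were peaks in 2 or more libraries of 1 genotype only had similar shares in members and elsewhere. In members, 153 regions were of this kind for WT (2.15%, against 2.59% of the regions of other bins) and 749 for Lats1-CKO (10.5%, against 9.26%), beside 3370 that were peaks in both genotypes and 2829 in 1 library. AP-1 letters stood in 43.1% of the WT-only regions and 19.4% of the Lats1-CKO-only regions of members, and in 49.7% and 24.7% of those of the other bins. TEAD letters stood in 14.4% and 19.9% of them in members. Libraries of 1 group differed too: among member regions found in 1 library, AP-1 letters stood in 38.9% of those of BM2 and 5.88% of those of BM6, both WT basal-like, and in 28.9% of those of BM4 and 19.3% of those of BM8, both Lats1-CKO basal-like. The 4 WT libraries had 33369 to 49814 distal peaks and BM4, BM7 and BM8 62878 to 73069, and the part of these numbers in the counts of regions of 1 genotype was not tested.

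To ask whether accessibility in these bins differed by genotype, the distal peaks per bin were tested with limma on log2 scaled numbers of peaks with voom weights over all 9404 bins with 16 or more peaks, which include all 300 members. No bin was called at an adjusted p under 0.05 (background 0% of bins), and the lowest adjusted p of a member was 0.413. At an unadjusted p under 0.05, 10 members were higher in Lats1-CKO (3.33%, against 4.34% of all bins) and 1 was lower (0.333%, against 4.66%). The balance changed with the scaling. Without weights 11 members passed (3.67%, against 4.22% of all bins), 1 of them higher. Scaled to all peaks 35 passed (11.7%, against 11.2% of all bins), 28 of them higher. Without BM3, 48 of the 300 members and 10.5% of all bins passed that unadjusted threshold, 22 of the members being higher, and none passed the adjusted one. The median SE of a member's log2 difference was 0.34, so modest differences were not detectable with 2 libraries a group. Members had been chosen on the peaks of these same libraries, of which the Lats1-CKO libraries other than BM3 gave more.

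None of the members named next was called. Among those of lowest p, the largest values in the direction of Lats1-CKO were at genes of fibrillar collagens, which form the fibers of the extracellular matrix. The Col27a1 bin (chr4:63200001-63300000, 23 regions) held 1, 4, 0, 8, 2, 2, 11 and 20 peaks in BM1 to BM8, or 0.201 to 0.824 per 10000 in WT and 1.27, 1.63 and 2.74 in BM4, BM7 and BM8. The log2 difference was 1.48 (SE 0.38, limma adjusted p = 0.413), and without weights 0.65. Col5a1 (chr2:27800001-27900000, 25 regions) held 2, 4, 0, 16, 2, 6, 11 and 17 peaks, with a log2 difference of 1.14 (SE 0.35, limma adjusted p = 0.441) that was 0.44 without weights, and its scaled value in BM6 (1.80) lay above that in BM7 (1.63). BM3 had no peak in either bin. Promoters of the mesenchymal and fibroblast list moved with these bins in part: of 20 genes, 9, 13, 3, 16, 9, 10, 9 and 14 had a promoter peak in BM1 to BM8, highest in the Lats1-CKO basal-like libraries, and their part in the result was not tested. The other members of lowest p that were higher were the bin 482224 bp from Sox9 (log2 difference 0.96), a bin 129703 bp from Camk1g (0.92; 6, 8, 0, 14, 5, 2, 19 and 15 peaks) and a bin overlapping Cables1 and Tmem241 (0.90; 4, 3, 0, 12, 3, 6, 14 and 14 peaks). Without weights these 3 differences were 0.31, 0.19 and 0.22, and that at Cables1 was 0.58 without BM2.

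Members of lowest p on the lower side included the Hippo regulator Wwc1 and the receptor Egfr. Wwc1 (chr11:35900001-36000000) held 12, 16, 1, 5, 11, 8, 14 and 16 peaks, or 2.40 to 3.30 per 10000 in WT and 0.795, 2.08 and 2.19 in BM4, BM7 and BM8, with a log2 difference of -0.73 (SE 0.36, limma adjusted p = 0.560). Without BM4 that difference was -0.32. Egfr (chr11:16700001-16800000, 21 regions) held 11, 10, 0, 7, 9, 6, 12 and 9 peaks, with a log2 difference of -0.62 (SE 0.31, limma adjusted p = 0.581), and WT values of 1.80 to 2.21 per 10000 lay just above those of BM4, BM7 and BM8 (1.11 to 1.78). Tnc, a matrix glycoprotein (log2 difference -0.68; 7, 13, 2, 6, 10, 9, 8 and 16 peaks), and Lrch1 (-0.51; 8, 8, 0, 8, 7, 9, 9 and 12 peaks) had overlapping genotypes. The difference at Tnc was -0.33 without BM4 and -0.30 without weights, and that at Lrch1 was -0.32 without BM6 and -0.80 without weights. At Egfr it was -0.94 without weights. The remaining one, near Mtap, is described with the stretch that lacks peaks in BM4.

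**Figure D5:**
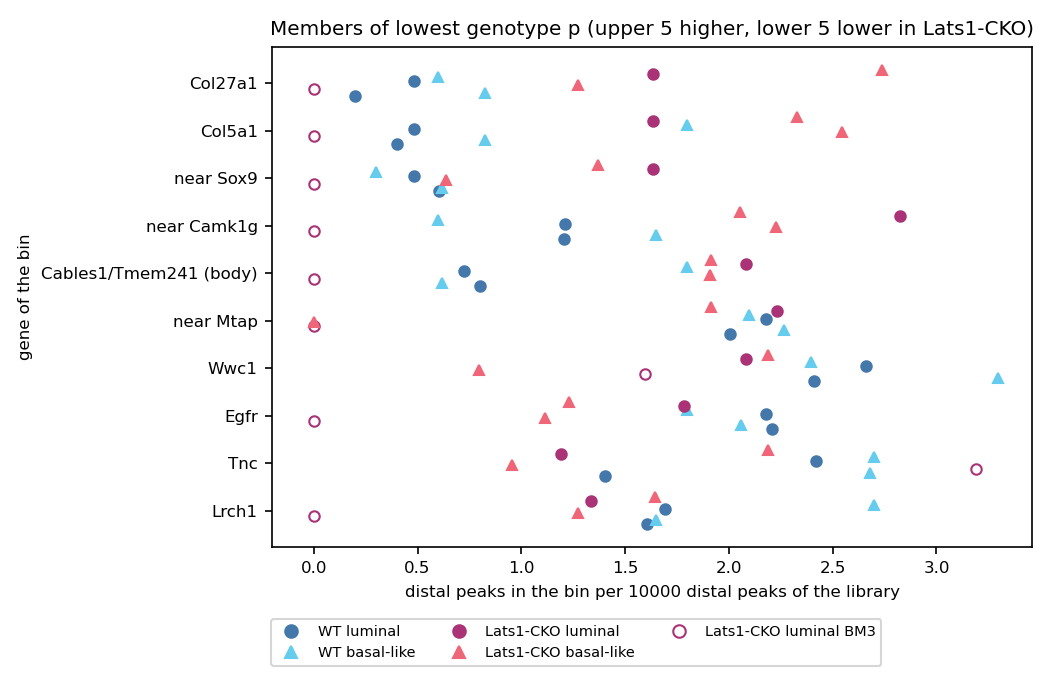
Distal peaks per 10000 distal peaks of the library (x axis) in the 5 members of lowest genotype p in each direction (y axis), with BM3 as open circles. In the Col27a1 bin BM4, BM7 and BM8 sit between 1.27 and 2.74, all above the WT libraries, and in the bin near Mtap BM4 is at 0.

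Leaving BM3 aside, which was chosen after its number of peaks was seen, the scaled values of BM4, BM7 and BM8 lay above all 4 WT libraries in 17 members (5.67%, against 4.68% of all tested bins) and below them in 18 of the 300 (background 6.26%), close to the background in both directions. Those above included Chst11, Crim1, Col27a1, Sept9 (its bin at chr11:117300001-117400000), Fzd7, a Wnt receptor, Afap1, an actin-associated adaptor, Gas7 and Rasa3. The Fzd7 bin had 0.484 to 1.44 per 10000 in WT and 1.59 to 1.64 in the 3 Lats1-CKO libraries. Those below included Socs3, Pmepa1, Sox9, Egfr, Wwc1, Nrp2, a semaphorin receptor, Klf6, a zinc-finger transcription factor, and Tspan14, a tetraspanin. The widest gap was at Tspan14 (chr14:40900001-41000000, 24 regions), with 16, 18, 6, 13, 14, 13, 15 and 16 peaks in BM1 to BM8. WT values there were 3.21 to 3.90 per 10000, and BM4, BM7 and BM8 had 2.07, 2.23 and 2.19. BM3, at 9.57, was the highest of all libraries in that bin, as it was in the bins of Socs3, Pmepa1, Klf6 and Sox9, so the lower values there did not hold over all 4 Lats1-CKO libraries. BM3 was the highest library in 13 of the 18 members and lay below every WT library, with the other Lats1-CKO libraries, in 3 of them: Egfr, Wwc1 and the bin of Ndst1 and Rps14. It also lay above every WT library in 5 of the 17.

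BM4 (Lats1-CKO basal-like) had no peak in a stretch of 489 kb of chromosome 4 in which the other libraries had many. The stretch (chr4:88938613-89427934) holds Mtap, an enzyme of methionine salvage, and the tumor suppressor genes Cdkn2a and Cdkn2b. It held 42, 48, 3, 0, 39, 36, 63 and 60 peaks in BM1 to BM8, promoters included, so that even BM3 had some, as did BM8, the other library of the same group. Of its merged regions, 26 were peaks in at least 5 of the 6 libraries other than BM3 and BM4. The stretches without peaks in the other libraries, BM3 aside, spanned at most 8 such shared regions (BM5). Ranked by shared regions and not by length, the next stretch of BM4 on another chromosome spanned 6. It lay on chromosome 9 and was longer, at 1761 kb. The stretch contains the member bin 37122 bp from Mtap (chr4:89000001-89100000, 22 regions), which was the only member without a peak in BM4 and held 10, 11, 0, 0, 9, 7, 15 and 14 peaks. Its genotype difference of -1.53 on the log2 scale (SE 0.70, limma adjusted p = 0.528) became -0.20 without BM4. The lists give no reads, so missing DNA and closed chromatin cannot be told apart here.

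Between basal-like and luminal cells, no bin was called either (background 0% of 9404 bins), and the lowest adjusted p of a member was 0.9998. At an unadjusted p under 0.05, 6 members were higher in basal-like cells (2.00%, against 1.82% of all bins) and 1 was lower (0.333%, against 2.28%). Without weights 25 members passed (8.33%, against 3.92% of all bins), 24 of them higher, and without BM3 14 passed (4.67%, against 4.25%), 13 of them higher. Col5a1 was again the first of those higher, with a log2 difference of 1.04 (SE 0.36), followed by a bin 1032 bp from Arap3 (0.81; 4, 6, 0, 11, 4, 5, 5 and 12 peaks), one within Nrp1, a coreceptor for semaphorins and VEGF (0.88; 4, 8, 0, 10, 1, 3, 9 and 14), Zfp608 (0.74; 5, 7, 0, 13, 3, 4, 7 and 14) and Gse1 (0.70; 5, 9, 0, 11, 4, 6, 8 and 11). In each of these 5 bins BM3, a luminal library, had no peak. Without BM3 the difference at Col5a1 was 0.72, and without BM5 that at Nrp1 was 0.53. On the lower side stood Bcar3, an adaptor that binds Bcar1, with 12, 12, 2, 9, 9, 1, 15 and 12 peaks (log2 difference -0.98), where BM6 had 1 peak and the difference without BM6 was -0.32. The others were Arid5b (-0.76), the bin near Mtap (-0.96), a bin overlapping Ppp2r5c (-0.57) and Irf2bp2 (-0.49). With 1 library left out, Arid5b ran from -1.44 (without BM8) to -0.34 (without BM3), Ppp2r5c from -0.96 (without BM6) to -0.12 (without BM2) and Irf2bp2 from -0.79 (without BM7) to -0.12 (without BM3).

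The interaction of genotype and population gave no call (background 0%), and 10 members had an unadjusted p under 0.05, or 3.33%, against 3.45% of all bins. All 10 had a lower genotype difference in basal-like than in luminal cells, as had 249 of the 324 bins that passed that threshold. Over all bins the median interaction was -0.25 on the log2 scale and over members -0.47, and with unweighted values these medians were 0.19 and -0.29. Unweighted values also moved the median population difference of all bins from -0.02 to 0.12. Without BM7, which leaves BM3 as the only Lats1-CKO luminal library, the median interaction was -0.81 over all bins and -0.91 over members. Without BM3, which leaves BM7 alone in that group, these medians were -0.14 and -0.28. Both fits assume that the library left alone varied like the other groups, so no conclusion is drawn from calls in them. Acpp (chr9:104300001-104400000, 21 regions) had the lowest p, with 10, 12, 3, 10, 7, 8, 16 and 4 peaks and an interaction of -2.09 (SE 0.69, limma adjusted p = 0.993). In 21 of the 300 members (7%, against 4.52% of all tested bins) Lats1-CKO and WT libraries did not overlap in either population and lay in opposite directions. Lats1-CKO was higher in luminal and lower in basal-like cells in 19 of the 21, and in 246 (57.9%) of all tested bins of this kind.

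Members varied in how evenly the 7 libraries other than BM3 filled them. The median coefficient of variation of the scaled values was 0.238. The most even were Nfatc2, a calcium-regulated transcription factor, with a coefficient of 0.0856 and at most 1.94 peaks per 10000, Tgm2, a transglutaminase, with 2.08 to 2.61, and Ldlrad4, an inhibitor of TGF-beta signalling, with 1.44 to 1.94. The least even were Col27a1, with a coefficient of 0.783, Arid5b, a chromatin regulator, with 0.764, and the bin of Apopt1, Bag5 and Klc1, with 0.707. That bin (chr12:111700001-111800000, 23 regions) held 3, 3, 1, 5, 5, 2, 10 and 21 peaks in BM1 to BM8, the most in BM8, as in the bin of Col27a1.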

How the data were processed

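Peak calling was done by the authors, per the labels and methods, with cutadapt for trimming, Bowtie 1.0.0 for unique alignment to mm10 and Picard 2.3.0 for the removal of duplicates. Fragments above a set length were dropped, peaks were called in each library separately with MACS2 (2.1.1.20160309 in the processing notes, another version in the methods) and those on the ENCODE blacklist were removed. The authors deposited, for each library, peak positions with a score of 13 or more, taken to be that of MACS2. The score is not normalized between libraries, and was used only as a rank within a library.

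Bins, merging and start sites (GENCODE M21) are as described above. A library's distal peaks per bin were scaled to its distal autosomal peaks, and tested with limma 3.58.1 (voom weights, genotype + population, or with their interaction, Benjamini-Hochberg over all bins tested) in R 4.3.3. The fit was first run on simulated Poisson counts with known changes. These held no added spread between libraries of a group, so that run says nothing about such spread here. Other steps used python 3.11.15, pandas 2.3.3 and pysam 0.24.0. Named bins were the 20 densest, those next to the limit, the 5 members of lowest p in each direction, the longest runs, the densest without a start site, the 3 most and 3 least even, and members holding genes of 14 lists. The members and lists were chosen with earlier results of these data known. No reads per library were used, so peak absence depends on an unknown depth and no counting error can be given. All 8 libraries were kept. A few items are not reported here. Chromosome X was left out of the comparisons by the selection rule, and RNA-seq was not used. Alternatives were another start-site distance, protein-coding start sites only, recurrent regions only, the 5000 highest-scoring peaks, covered bases, shifted bins, other scalings, no weights, no filter on low numbers of peaks, and each library left out in turn. Choosing bins from libraries of 1 genotype, and the counts of bins without overlap of the genotypes, over all libraries or within each population, were added after seeing the data.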

Additional observations from a re-analysis of the deposited data

Results flagged for a closer look

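In 7 of the bins named above, the genotype difference had opposite directions in luminal and basal-like cells, each library of 1 population lying on the other side of its WT libraries from those of the other population. The difference between populations was tested as the interaction in limma, and none passed an adjusted p of 0.05.

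The bin of Lad1, Pkp1, Tnni1 and Tnnt2 (29 regions) held 2.81 and 3.15 peaks per 10000 distal peaks in WT luminal and 3.19 and 3.27 in Lats1-CKO luminal cells, against 2.88 and 3.60 in WT basal-like and 1.75 and 2.60 in Lats1-CKO basal-like cells. Lats1-CKO was likewise higher in luminal and lower in basal-like cells in the bin of Egfl7 (27 regions), in the last bin of the run at Cebpb (chr2:167800001-167900000, 26), in 1 bin each of Ptpn14 (chr1:189700001-189800000) and Tns3 (chr11:8600001-8700000) with 25 regions, and in the bin of Acpp (21). At Acpp the values were 2.01 and 1.69 in WT luminal, 4.79 and 2.38 in Lats1-CKO luminal, 2.47 and 2.40 in WT basal-like and 1.59 and 0.547 in Lats1-CKO basal-like cells. BM3 was the highest of the luminal libraries in each of these bins but that of Lad1. Its scaled values rest on few peaks: 2 in the bins of Lad1, Ptpn14 and Tns3, and 3 in those of Egfl7 and Acpp.

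The bin near Arap3 (21 regions) went the other way, with 0.803 and 0.968 in WT luminal and 0 and 0.743 in Lats1-CKO luminal cells, against 1.24 and 1.50 in WT basal-like and 1.75 and 1.64 in Lats1-CKO basal-like cells.

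Chromosome X, which the selection left out, held 4359 distal regions. Its densest bin, at Tmem164 (chrX:142800001-142900000), held 19, fewer than any member.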

How the results depend on the processing

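Which bins were members depended on the settings. Of the 300, 191 were also among the densest with a start-site distance of 5 kb, 185 with regions found in 2 or more libraries, 194 by covered bases, 179 with bins shifted by 50 kb and 88 with the 5000 highest-scoring peaks. Choosing from the WT libraries alone, an alternative added after seeing the data, kept 168. Leaving out each library in turn kept 230 (without BM8) to 297 (without BM3). The counts of bins called for genotype and population were 0 under every alternative that was run. For the interaction, leaving out each library gave 0 to 20 members and 0 to 156 bins called, the highest being without BM7. Each of these interaction fits left 1 library in a group, and without BM7 that library was BM3. The spread within such a group cannot be measured, so no conclusion is drawn from these calls. Of the values at single bins, the population difference near Mtap ran from -1.28 (without BM1) to 0.053 (without BM4), and that at Ppp2r5c became 0.089 without weights. The cause was not tested. Scaling to each library's median was not run, since the median of BM3 over the tested bins is 0. No paired analysis was possible because the labels pair no libraries.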
